A study of Mus musculus with 8 samples.

Results

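The genes examined here are 10 members of the p53, p16/Arf and Rb checkpoint, out of 46078 genes counted in the study: Trp53, Mdm2, Mdm4, Cdkn1a, Cdkn2a, Cdkn2b, Cdkn2c, Rb1, Ccng1 and Bbc3. They were picked by name for their role. The question was in what state this barrier against continued division stood in cultured fibroblast lines, read from each parental allele in turn. All cells were female mouse embryonic fibroblasts (MEFs), labelled 129S1/SvImJ x CAST/EiJ. The study's text names 129Sv4/Jae as the strain of the 129 X chromosome, and reads were split by 129S1/SvImJ variants, so a read that covers a strain difference can be given to the 129 or to the CAST copy of its gene.

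The groups were WT, XiΔXist (Xist deleted on the inactive X chromosome, which is the 129 copy), XiΔXist shSCR (the same deletion with a scrambled short hairpin RNA) and XiΔXist shYY1 (with a hairpin against Yy1, a zinc finger transcription factor). Each group had 2 RNA-seq samples, and the shYY1 samples carried different hairpins. The parent lines were clonal, so each genotype is 1 clone, and no animal age or passage number is given in the sources used here. The hairpin cells were also transduced with lentivirus and selected with puromycin, and their libraries were sequenced with longer reads than the untreated ones. The counts deposited add the replicates of a group into 1 pool per allele. No spread between replicates can therefore be given, every interval below covers counting error only, and a Fisher's exact test compares a pair of pools and not the conditions. In such bulk RNA, fewer cells with an active gene and less RNA per cell cannot be told apart.

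In normal cells, p53 (Trp53) is a transcription factor that is stabilized by DNA damage and other stress. Its target p21 (Cdkn1a) inhibits cyclin-dependent kinases, while the ubiquitin ligase Mdm2 and its partner Mdm4 hold p53 down. The Cdkn2a locus encodes p16Ink4a, which inhibits Cdk4 and Cdk6, and in another reading frame p19Arf, which inhibits Mdm2. Cdk4 and Cdk6 phosphorylate Rb (Rb1), and unphosphorylated Rb holds E2F factors inactive. Mouse fibroblasts in culture are known to raise Cdkn2a products and p53 activity as they senesce, and lines that escape often have lost Trp53 or the Cdkn2a locus.

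The Cdkn2a products start at separate first exons, but the deposited count sums all exons of the gene and cannot be split between them. In the GENCODE M21 annotation (GRCm38), the transcript Cdkn2a-201 of p16Ink4a has its first exon of 207 bases at chr4:89281986-89282192, and Cdkn2a-202 of Arf has its own of 320 bases at chr4:89294334-89294653, both on the minus strand. The 250 bases before each RefSeq start (GRCm38.p6) are shown because they mark these separate entry points to a shared count. The lower-case letters are the rest of each stretch, and capitals mark TTTCCCGC, a core of the E2F site, found on either strand in 0.895% of the 250 bases upstream of 32851 starts. The order is p16 side, chr4:89282193-89282442, then Arf side, chr4:89294654-89294869, both minus strand, and the latter stops at the edge of the GENCODE first exon, 216 bases long, because the RefSeq start lies inside that exon.
Cdkn2a, p16 side: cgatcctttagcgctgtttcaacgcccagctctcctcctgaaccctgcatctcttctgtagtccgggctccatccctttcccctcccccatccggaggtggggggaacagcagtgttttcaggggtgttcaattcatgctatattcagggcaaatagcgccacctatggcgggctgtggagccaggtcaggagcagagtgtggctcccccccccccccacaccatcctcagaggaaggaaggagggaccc
Cdkn2a, Arf side: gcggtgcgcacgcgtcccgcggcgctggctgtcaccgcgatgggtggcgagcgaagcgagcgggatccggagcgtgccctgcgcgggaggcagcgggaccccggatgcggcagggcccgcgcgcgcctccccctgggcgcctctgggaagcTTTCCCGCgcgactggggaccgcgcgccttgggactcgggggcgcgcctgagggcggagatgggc
Over the whole 250 bases, the Arf side was 78.4% G or C with 40 CpG pairs, and the p16 side was 60% G or C with 7, against a median of 52.4% and 6 over all starts. The E2F core began 99 bases before the RefSeq start of Arf and was absent from the p16 stretch.

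The decamer that p53 binds, which is 1 arm of its response element, was searched in the same way. It is shown for the 4 members that hold it, and this choice was made with the values of the pools known. Several members were picked as known p53 targets, so the matches are no test of p53 action in these data. The decamer was found in 7.13% of the upstream stretches of all starts, which is a share of starts and not of genes. RefSeq promoter entries were given for 9 of the 10 members, with 15 starts in all. The entry not given was that of Rb1. Each match is shown in capitals with 20 bases on each side, and a match of letters is not evidence of binding.
Cdkn1a, chr17:29090886-29090957, plus strand: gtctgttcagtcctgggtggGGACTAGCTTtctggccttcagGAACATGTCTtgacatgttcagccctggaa
Mdm2, chr10:117710915-117710964, minus strand: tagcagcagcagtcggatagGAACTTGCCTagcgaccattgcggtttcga
Ccng1, chr11:40755442-40755491, minus strand: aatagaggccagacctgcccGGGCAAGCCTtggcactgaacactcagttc
Trp53, chr11:69580264-69580313, plus strand: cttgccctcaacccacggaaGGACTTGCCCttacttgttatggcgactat
The 2 matches of Cdkn1a began 73 and 51 bases before the upstream of its 2 starts, and none lay before the other start. Mdm2 and Ccng1 held 1 match each, beginning 186 and 185 bases before the start, and Trp53 held 1 at 75 bases.

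Depth differed by an order of magnitude: the WT pool had 24310035 reads assigned to an allele and the XiΔXist pool 28329701, but the shSCR and shYY1 pools had 2393545 and 2504345. A level below is the sum of both alleles' reads scaled to this depth, in the usual unit CPM. Because it counts only reads over strain differences, it cannot be compared between genes. Mitochondrial reads took between 20.2% and 39.5% of a pool. The labels were checked first: Xist had 1456 CPM in WT, 0.741 in XiΔXist, 0 reads in shSCR and 6 reads in shYY1, and Yy1 had 63.3, 59.9, 99.0 and 36.7 CPM in the same order. The 14 fibroblast markers, of which 13 or 14 had reads in each pool, summed to between 4015 and 10473 CPM. Epithelial markers reached at most 13.0 CPM in sum, endothelial 2.96, blood cell 17.6 and skeletal muscle 0.399 CPM.

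Trp53 (chr11:69580359-69591873, plus strand, in the same annotation as all member positions) was read from both alleles in every pool. Its level was 3.87 CPM in WT (61 reads of 129 and 33 of CAST), 3.07 in XiΔXist (52 and 35), 95.3 in shSCR (117 and 111) and 91.4 in shYY1 (117 and 112). The counting intervals of the untreated pools overlapped with each other, as did those of the hairpin pools, and the hairpin pools lay above the untreated ones. The 129 share was 64.9% in WT (95% Wilson interval 54.8 to 73.8), 59.8% in XiΔXist, 51.3% in shSCR and 51.1% in shYY1, and the genes within 5 Mb had medians between 52.9% and 58.01%.

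The p53 inhibitors differed in their allelic state. Mdm2 (chr10:117688875-117710758, minus strand), the ligase, was near the limit of the untreated pools with 9 reads in WT (7 of 129 and 2 of CAST) and 12 in XiΔXist (5 and 7), and had 40 reads in shSCR (19 of 129 and 21 of CAST) and 29 in shYY1 (16 and 13). Its levels were 0.370, 0.424, 16.7 and 11.6 CPM. Mdm4 (chr1:132959484-133030561, minus strand) was read almost wholly from the 129 copy: CAST reads numbered 1 of 4347 in WT, 7 of 5392 in XiΔXist, 0 of 527 in shSCR and 2 of 475 in shYY1. Its level was 179, 190.3, 220.2 and 189.7 CPM, and the intervals of shSCR and XiΔXist, and of XiΔXist and WT, did not overlap, while that of shYY1 overlapped all 3 others. Around Mdm4, 48 of 92 neighbours in WT also had a 129 share of at least 95%, and the other pools ranged from 50.5% to 62.9% of neighbours. A processed pseudogene, Mdm4-ps, covers 87.9% of the Mdm4 transcript by sequence but held 15 reads over all pools.

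The p53 targets Cdkn1a and Ccng1 were read almost wholly from the 129 copy. This state was common, since between 39.9% and 40.4% of autosomal genes with at least 20 reads had a 129 share of at least 95% in a pool. Cdkn1a (chr17:29090976-29100727, plus strand), which encodes p21, had 156, 314, 160 and 245 reads of 129 in WT, XiΔXist, shSCR and shYY1, and 0, 1, 0 and 0 reads of CAST. Its 4 pools were each distinct in level, at 6.42, 11.1, 66.8 and 97.8 CPM. The 0 CAST reads in shYY1 allow a CAST share of up to 1.22%. Nearly the whole neighbourhood was alike, since 101 of 102 genes within 5 Mb in WT and 111 of 112 in shYY1 had a 129 share of at least 95%. Whether a CAST copy of this stretch was present in these cells was not tested. The annotation gives 273 bases of Cdkn1a exons to an antisense gene as well, and that gene is not among those counted.

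Ccng1 (chr11:40748552-40755311, minus strand), which encodes cyclin G1, was the most deeply read member. It had 37631 reads of 129 and 54 of CAST in WT, 48906 and 91 in XiΔXist, 452 and 0 in shSCR, and 689 and 0 in shYY1. Its levels were 1550.2, 1729.5, 188.8 and 275.1 CPM, with no overlap of intervals between any pools. The 14 or 15 genes read within 5 Mb had medians of at least 99.6%, although Trp53 on the same chromosome was read from both alleles. Bbc3 (chr7:16308393-16318205, plus strand), which encodes the pro-apoptotic protein Puma, had 0 reads in WT, 5 in XiΔXist and 0 in both hairpin pools, which allows up to 0.123 CPM in WT and 1.25 CPM in shSCR. It was not detectable in the hairpin pools at this depth.

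**Figure D1:**
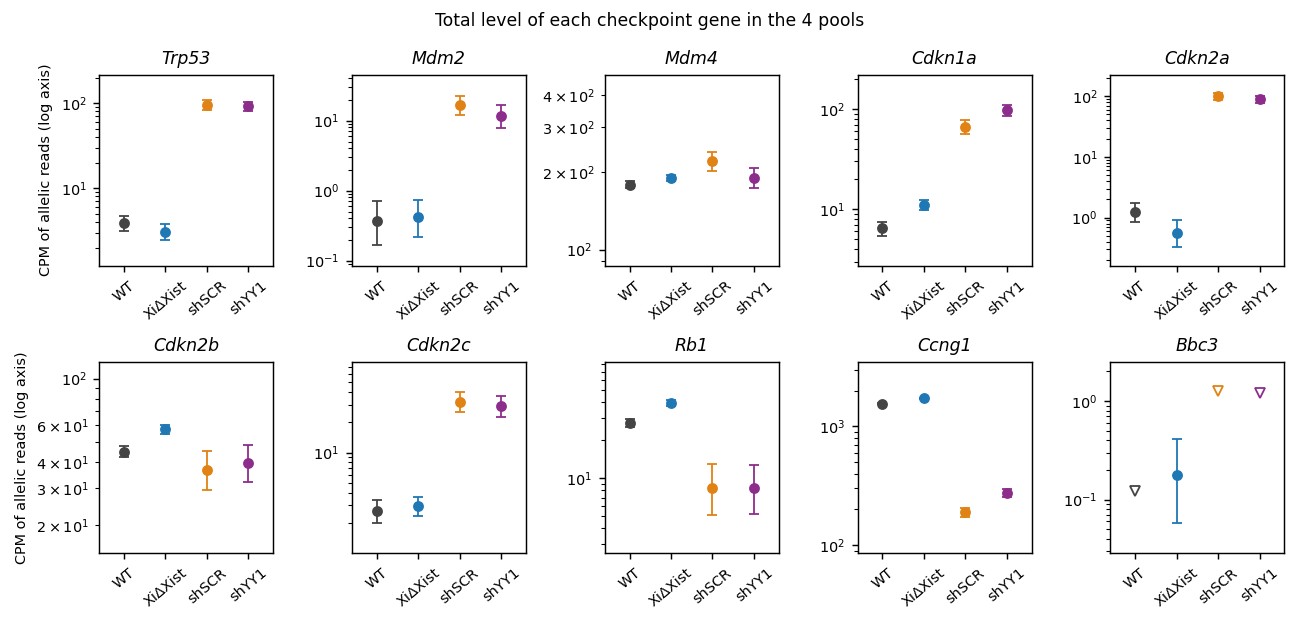
Total level of each member (CPM of allelic reads, log axis with its own range in each panel) in the WT, XiΔXist, XiΔXist shSCR and XiΔXist shYY1 pools. Points are pools, bars are exact Poisson 95% intervals of the count, and open triangles mark the level of 3 reads where a pool had 0; Trp53, Mdm2, Cdkn2a and Cdkn2c sit higher in both hairpin pools and Rb1 and Ccng1 lower.

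Cdkn2a (chr4:89274471-89294653, minus strand) was read from both alleles in every pool. It had 18 reads of 129 and 12 of CAST in WT, 8 and 8 in XiΔXist, 118 and 122 in shSCR, and 117 and 107 in shYY1. The levels were 1.23, 0.565, 100.3 and 89.4 CPM, low in the untreated pools and high in the hairpin pools. In shSCR, the pool with the most reads of the gene, the 129 share was 49.2% (42.9 to 55.5), and the neighbours' median was 53.01%. The 3 genes whose levels over the 4 pools lay nearest to those of Cdkn2a, among 12143 genes by Euclidean distance of centred log2 values, were Gm4366 (a processed pseudogene), Tcf3 and Ubr4, at distances of 0.107, 0.161 and 0.177. For Cdkn1a they were Gpr153, Capg and Sipa1, at 0.150, 0.270 and 0.278. The transcripts near Cdkn2a had 52.5%, 61.0% and 54.5% GC, and those near Cdkn1a 60.7%, 57.1% and 61.2%. The median was 47.4% over all genes tested between shSCR and XiΔXist, where changes went with GC content, as given below. The part of GC content in these like patterns was not tested.

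Cdkn2b (chr4:89306299-89311039, minus strand), which encodes p15 beside Cdkn2a, did not have the low and high pools of its neighbour. Its alleles were balanced in every pool, with 542 and 547 reads of 129 and CAST in WT, 814 and 809 in XiΔXist, 42 and 46 in shSCR and 55 and 44 in shYY1. The levels were 44.8, 57.3, 36.8 and 39.5 CPM. XiΔXist stood highest, and the intervals of the other 3 pools overlapped from each to the next in order. Cdkn2c (chr4:109660876-109667189, minus strand), which encodes p18, a further inhibitor of Cdk4 and Cdk6, had 2.63, 2.97, 31.8 and 28.8 CPM, from 64, 84, 76 and 72 reads. Its 129 share was 73.4% in WT (61.5 to 82.7), 53.6% in XiΔXist (43.0 to 63.8), 75% in shSCR (64.2 to 83.4) and 70.8% in shYY1 (59.5 to 80.1), and the medians of its neighbours were 56.7%, 50.7%, 56.8% and 55.9%. The intervals lay above the neighbours' medians in WT, shSCR and shYY1 and included it in XiΔXist.

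Rb1 (chr14:73183673-73325822, minus strand) was the member whose 129 share differed most between pools. It had 418 reads of 129 and 248 of CAST in WT, 602 and 518 in XiΔXist, 1 and 19 in shSCR, and 0 and 21 in shYY1. The 129 share fell from 53.8% in XiΔXist (50.8 to 56.7) to 5% in shSCR (0.888 to 23.6), and the 0 of 21 reads in shYY1 allow up to 14.3%. The total was 27.4, 39.5, 8.36 and 8.39 CPM. The CAST copy alone had 18.3 CPM in XiΔXist and 7.94 CPM in shSCR, whereas the 129 copy had 21.2 and 0.418 CPM. Genes within 2 percentage points of the GC content of Rb1 had a median log2 change in total level of -1.03 between these pools. The part of this in the CAST value was not tested. Of the exonic bases of Rb1, 488 are shared with Rcbtb2 and 408 with Lpar6 on the other strand, and reads there cannot be told apart unless strand was used.

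The near absence of 129 reads at Rb1 extended over most of chromosome 14. Of 189 genes on this chromosome that had at least 20 reads in all pools and a 129 share between 20% and 80% in XiΔXist, which keeps that pool above 5% by choice, none had a share of 5% or less in WT, and 183 did in shSCR (96.8%) and 176 in shYY1 (93.1%). The chromosome's median share of these genes was 60.9%, 49.7%, 0% and 0% in WT, XiΔXist, shSCR and shYY1. Within 5 Mb of Rb1, all 26 genes read in shSCR and 23 of 24 in shYY1 were at 5% or less. Between 10 and 60 Mb beyond Rb1 towards higher coordinates, the picture differed, since medians were 86.7% in shSCR and 90.9% in shYY1 and 99.7% in XiΔXist. No other autosome had more than 3 such genes at 5% or less in any pool, but medians differed on others too: between XiΔXist and shSCR they went from 50.2% to 27.1% on chromosome 12, from 50% to 72.1% on chromosome 2 and from 38.9% to 67.6% on chromosome 7. What became of the 129 copy of this stretch in the hairpin cells was not tested.

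**Figure D2:**
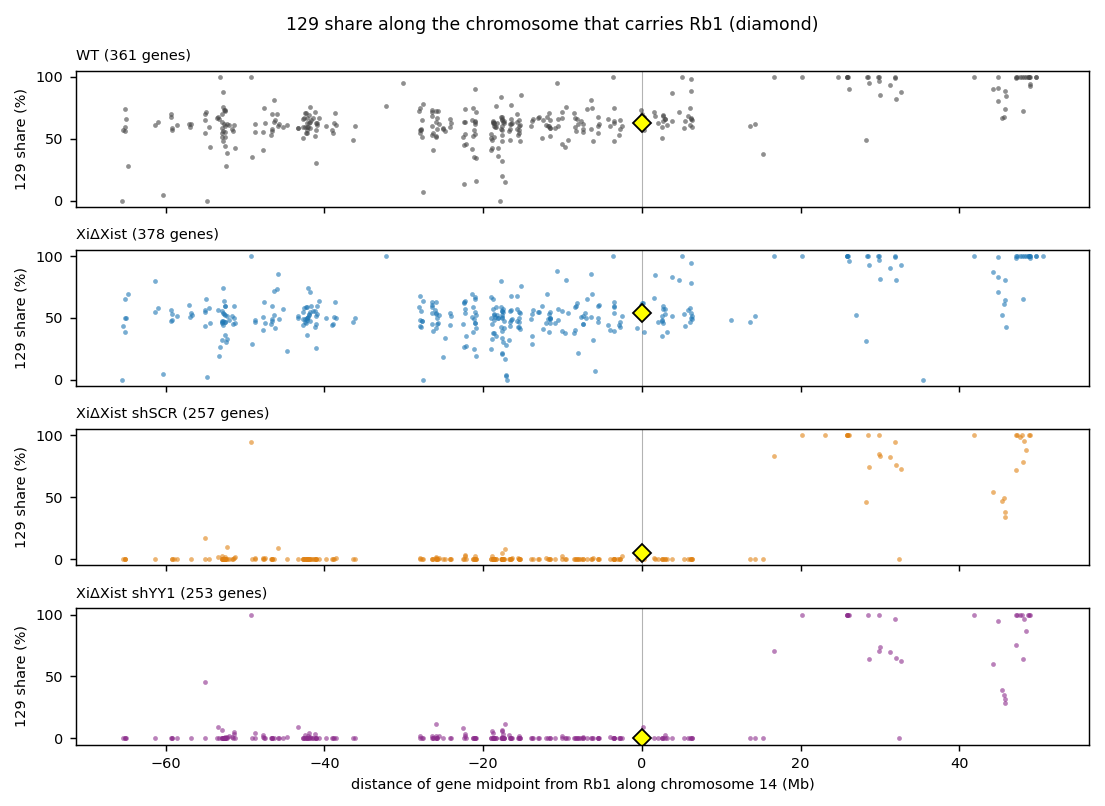
The 129 share (%) of each gene with at least 20 reads along chromosome 14, by distance in Mb from Rb1 (diamond), in 1 panel per pool. Genes lie near the middle in WT and XiΔXist up to and around the position of Rb1, at or near 0 there in both hairpin pools, and higher and widely spread between 10 and 60 Mb beyond it, with medians of 99.6%, 99.7%, 86.7% and 90.9% in the order of the pools above.

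**Figure D3:**
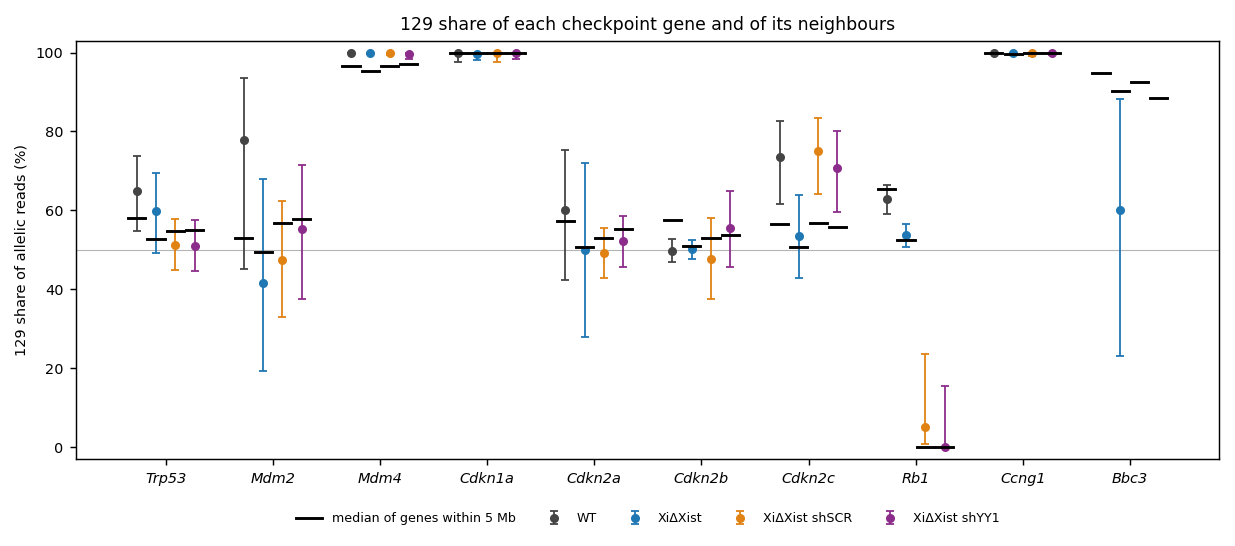
The 129 share of allelic reads (%) of each member in the 4 pools, as points with 95% Wilson intervals, and the median share of genes within 5 Mb as black bars. Mdm4, Cdkn1a and Ccng1 lie at 99.6% or above in every pool, Rb1 lies at 5% and 0% with its neighbours in the hairpin pools, and Bbc3 has reads in XiΔXist alone.

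The first comparison asked what deleting Xist on the inactive X did to these genes. At the rule for a call, a change of at least 2-fold in CPM + 1 with a Fisher p below 0.05 after Benjamini-Hochberg adjustment among genes that reached 50 reads when both pools were summed, 0 of the 7 members tested were called between XiΔXist and WT. Of all 10763 genes tested, 3.07% were called higher and 6.21% lower. At the adjusted p alone, 5 members were higher and 0 lower, with 21.1% of all genes higher and 38% lower. Cdkn1a was 1.73 times as high in XiΔXist (1.43 to 2.11, adjusted Fisher's exact p = 3.9e-08) and Cdkn2b 1.28 times (1.18 to 1.38, adjusted Fisher's exact p = 1.1e-09). Rb1 was 1.44 times as high (1.31 to 1.59, adjusted Fisher's exact p = 1.6e-13), and the other genes tested on chromosome 14 had a median log2 change of 0.36 against -0.11 over all genes. The part of this shift of the chromosome in the value of Rb1 was not tested. Cdkn2a had too few reads for the test, with a ratio of 0.458 (0.233 to 0.867).

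No member's 129 share was called between XiΔXist and WT, of 8 tested, with 4.17% of all genes called higher and 6.77% lower. A call of the share needed a change of at least 10 percentage points and an adjusted Fisher p below 0.05 where each pool had 10 reads or more. The share of Rb1 moved by -9.01 points (adjusted Fisher's exact p = 0.0016), and the median of its neighbours moved by -12.87 points. Cdkn2c moved by -19.87 points with an adjusted Fisher's exact p of 0.080, and its neighbours by -5.91.

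Around the members, few genes of the checkpoint lists were called, where 3.07% of all genes tested were called higher and 6.21% lower. Among 30 p53 target genes tested, 0 rose and 2 fell in XiΔXist: Perp, a membrane protein of desmosomes, from 114 reads to 3 (ratio 0.0226, 0.00459 to 0.0677), and Plk2, a polo-like kinase, 2.60-fold. The median log2 change of the list was -0.04 against -0.11 over all genes. Of 20 genes of the Rb pathway tested, Ccnd1 (cyclin D1) fell 2.90-fold and Cdk6 2.59-fold, and 0 rose. Among 7 cyclin-dependent kinase inhibitors, Cdkn1c (p57) went from 90 reads to 0, at least 35.0-fold lower at a floor of 3 reads in XiΔXist. None of 28 E2F target genes, 19 p53 regulators or 12 repressors of the Ink4-Arf locus were called, and at the adjusted Fisher p alone 9, 4 and 2 of them were higher and 8, 7 and 5 lower. At the adjusted p alone 21.1% of all genes were higher and 38% lower.

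Of 19 senescence-associated genes tested, 8 were called higher and 2 lower, and with DESeq2 size factors 9 and 1. At the main rule 3.07% of all genes were called higher and 6.21% lower, and the shares with DESeq2 size factors are not given here. Mmp3, a secreted metalloproteinase, had 6 reads in WT and 1105 in XiΔXist. The protease gene Plau rose 13.2-fold, the growth factor gene Areg 24.0-fold and Igfbp5 from 4 reads to 228. The chemokine genes Ccl7 and Ccl2 fell 5.33-fold and 2.19-fold, and both were named after their values were seen. Of 13 fibroblast markers 2 were called higher and 5 lower, and with DESeq2 size factors 3 and 3. With 1 clone per genotype, the deletion and differences between clones cannot be told apart.

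The second comparison asked what depleting Yy1 did in XiΔXist cells, with shSCR as control. Of 8 members tested, 0 were called, with 1.03% of all 8245 genes called higher and 1.32% lower. At the adjusted p alone 2 members were higher, where 4.92% of all genes were higher and 9.87% lower: both were the p53 targets Cdkn1a and Ccng1. Cdkn1a was 1.46 times as high in shYY1 (1.19 to 1.80, adjusted Fisher's exact p = 0.0034). Ccng1 was also 1.46 times as high (1.29 to 1.64, adjusted Fisher's exact p = 3.9e-08). All reads of both genes in these pools were of the 129 copy.

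Of the members without a call, Trp53 had a ratio of 0.960 (0.796 to 1.16), Cdkn2a 0.892 (0.740 to 1.07), Cdkn2b 1.08 (0.799 to 1.45) and Cdkn2c 0.905 (0.647 to 1.27). Mdm4 had a ratio of 0.861 (0.759 to 0.977, adjusted Fisher's exact p = 0.096), and none of these 5 intervals included a 2-fold difference between the pools. That of Mdm2 did, with a ratio of 0.693 (0.414 to 1.15). With 20 and 21 reads, Rb1 was under the minimum for the test. None of the 9 members tested had a called change of the 129 share, where 0.586% of all genes were called higher and 0.526% lower. The largest was 7.83 points, at Cdkn2b.

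Among 25 p53 target genes tested, 2 rose and 0 fell in shYY1, where 1.03% of all genes were called higher and 1.32% lower. Ercc5, a nuclease of excision repair, rose 2.57-fold from 42 reads to 113, and Psrc1, a spindle protein, 2.09-fold from 44 to 96. The median log2 change of the list was 0.23 against -0.08 over all genes. At the adjusted Fisher p alone 7 were higher and 1 lower, where 4.92% of all genes were higher and 9.87% lower. Beside the genes above, these were Eda2r (1.95 times), Trp53inp1 (1.88), Zmat3 (1.33) and, lower, Epha2 at 0.647 times, which were chosen after their values were seen. Mdm2, which p53 also induces, and Aen, Sesn1 and Plk2, with ratios of 1.12, 0.935 and 0.999, were not among them, and Aen, Sesn1 and Plk2 were likewise named after their values were seen.

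Cdc45, a replication factor, was the 1 E2F target called of 29, 2.34-fold higher. Wrap53, which lies beside Trp53 and is transcribed from the other strand, fell 2.65-fold from 38 reads to 15 and was the 1 p53 regulator called of 20. The Rb pathway genes (21 tested), cyclin-dependent kinase inhibitors (5), repressors of the Ink4-Arf locus (16) and senescence-associated genes (14) had 0 calls, with 1, 1, 1 and 1 higher and 3, 0, 3 and 1 lower at the adjusted Fisher p alone. At the adjusted p alone 4.92% of all genes were higher and 9.87% lower. Fibroblast markers were higher at the adjusted p alone in 9 of 12 and lower in 1, with Col3a1 called at 2.37-fold. The part of this shift in the p53 targets was not tested.

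**Figure D4:**
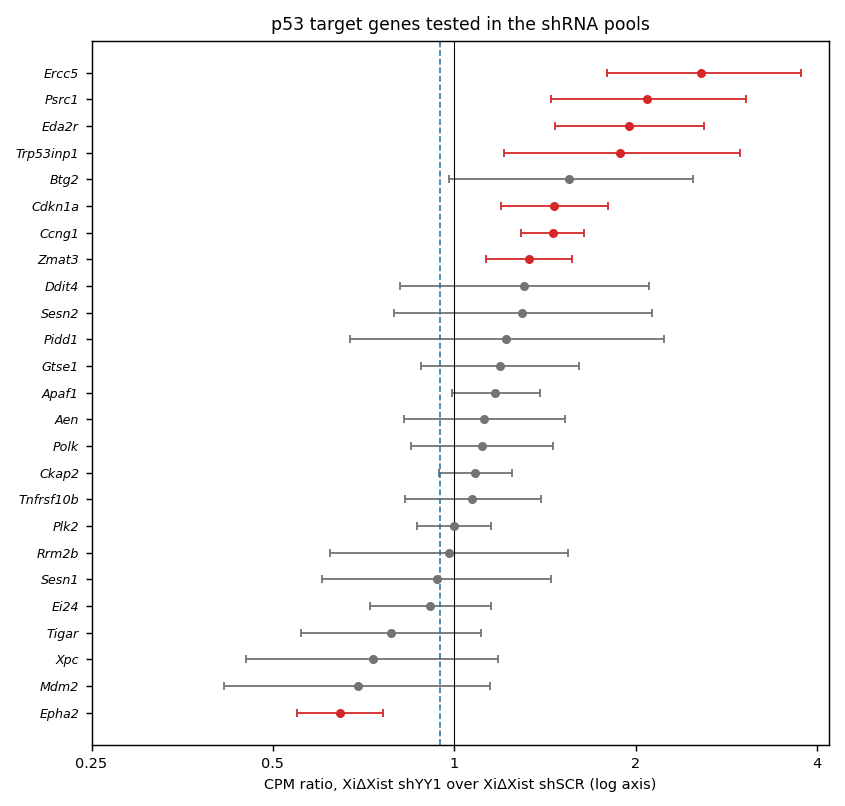
Ratio of CPM in XiΔXist shYY1 over XiΔXist shSCR (log axis) for the 25 p53 target genes with at least 50 reads in these pools, with exact 95% intervals that cover counting error. Red points have an adjusted Fisher p below 0.05, and the dashed line is the median of all genes tested; 7 red points lie above it, led by Ercc5 at 2.57, and Epha2 lies below at 0.647.

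The third comparison sets the shSCR pool beside the untreated XiΔXist pool. It carries the scrambled hairpin, viral transduction, selection and another read length at once, and any difference between the cells or library preparations of the pools, which cannot be told apart. Of 9 members tested, 5 were called higher and 2 lower in shSCR, against 39.7% and 24.6% of all 10444 genes. At the adjusted p alone 6 were higher and 3 lower, where 49% of all genes were higher and 34.1% lower. Cdkn2a had a ratio of 178 (107 to 316), Mdm2 39.5 (20.3 to 82.6), Trp53 31.0 (24.1 to 40.2), Cdkn2c 10.7 (7.75 to 14.8) and Cdkn1a 6.01 (4.94 to 7.29), with adjusted Fisher's exact p of at most 1.1e-33. Ccng1 was 9.16-fold lower, and Rb1 4.73-fold lower (adjusted Fisher's exact p = 5.7e-19). Cdkn2b had a ratio of 0.642 (0.512 to 0.796) and Mdm4 1.16 (1.06 to 1.27), and neither reached 2-fold. Under TMM and DESeq2 factors Cdkn2b was called lower, and Mdm4 turned to the lower side without a call.

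Changes in this comparison went with the base composition of the transcripts. Across the 10413 genes with a known transcript, Pearson's r of the log2 change with GC content was 0.67 here, 0.01 between XiΔXist and WT and -0.13 between the hairpin pools, as a description over genes of the same libraries. The median change was -1.48 for transcripts of up to 38% GC and 4.19 above 58%. Cdkn2a has 60.2% GC and Ccng1 40.8%. After the median change of tested genes within 2 percentage points of GC was subtracted, Cdkn1a stood at 0.01 and Cdkn2c at -0.65 on the log2 scale, and neither was called. A call after this step, here and for the gene lists, took its fold from the subtracted value. Its adjusted Fisher p was that of the change before subtraction, and the subtracted values themselves were not tested. Mdm2 remained at 3.67, Trp53 at 2.43 and Cdkn2a at 1.77, Rb1 at -1.09 and Ccng1 at -2.06, and Cdkn2b moved to -3.67, so that 3 members were called higher and 3 lower. The share of all genes called after this step is not given here, so these counts cannot be set against it. The members' median went from 2.48 to 0.01 with this step.

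**Figure D5:**
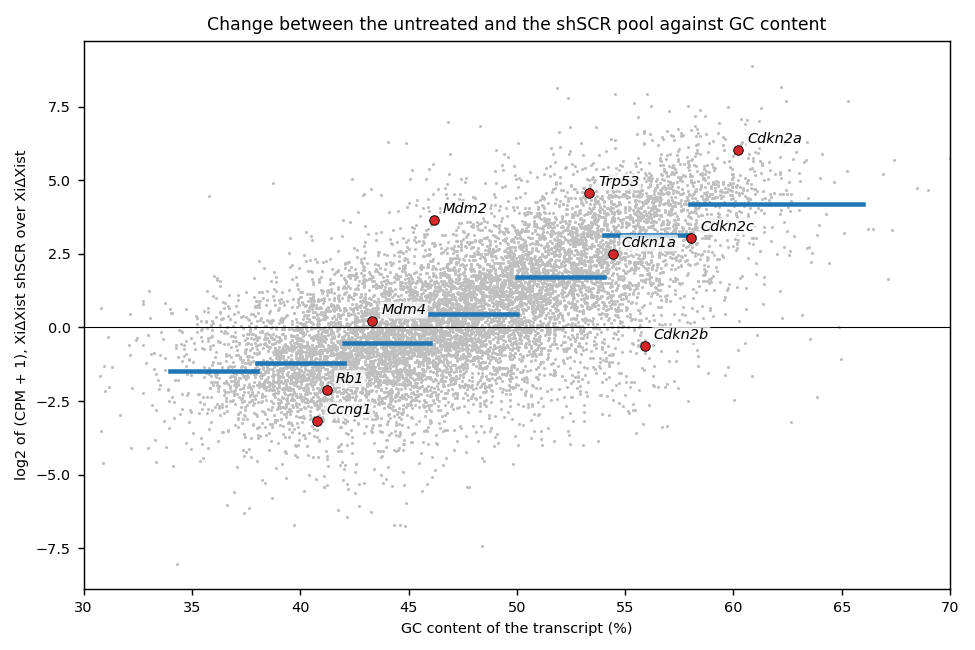
Log2 change of CPM + 1 between XiΔXist shSCR and XiΔXist against the GC content (%) of each gene's longest transcript. Grey points are genes tested, blue bars are medians of GC bins, which climb from -1.48 to 4.19, and red points are members; Mdm2 and Trp53 lie above the genes of like GC and Cdkn2b far below.

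The 129 share of 2 members was called in this comparison, where 9.66% of all genes were called higher and 8.95% lower. Rb1 moved by -48.75 points (adjusted Fisher's exact p = 8.8e-05) and its neighbours' median by -52.52. Cdkn2c moved by 21.43 points (adjusted Fisher's exact p = 0.028) and its neighbours by 6.01. In level, genes of chromosome 14 that were read on both alleles in XiΔXist had a median change of -0.75 relative to genes of like GC, against 0.05 on the other autosomes, and Rb1 had -1.09. Within the hairpin pools, where Rb1 and its neighbours were alike, these chromosome 14 genes had a median of 0.02.

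The gene lists went both ways in shSCR against XiΔXist, and their splits moved with the scaling. At the main rule 39.7% of all genes tested were called higher and 24.6% lower. Shares of all genes under the other scalings are not given here. Of 30 p53 target genes 13 were called higher and 8 lower, which became 7 and 14 with DESeq2 size factors and 8 and 8 relative to like GC, led by Epha2 at 90.3-fold higher, Gtse1 at 28.5-fold higher and Mdm2 and Ccng1 as above. Of 20 p53 regulators 9 were higher and 6 lower (7 and 10 with DESeq2 factors, 4 and 2 relative to like GC). Trp53bp2, Kat5, Hipk2 and Wrap53 were between 9.96-fold and 17.3-fold higher. Of 22 Rb pathway genes 15 were higher and 4 lower (8 and 5 with DESeq2 factors, 8 and 3 relative to like GC). Of 7 cyclin-dependent kinase inhibitors 3, all members, were higher and 0 lower (3 and 4 with DESeq2 factors, 1 and 1 relative to like GC). Tfdp1, the partner of E2F factors, rose from 8 reads to 181, E2f4 from 10 to 102 and E2f1 13.7-fold, and Ccne2 (cyclin E2) fell 8.06-fold. The read counts are not scaled to depth, which was lower in shSCR by an order of magnitude, and the folds are. Of 30 E2F targets 12 were higher and 9 lower (9 and 13 with DESeq2 factors, 8 and 9 relative to like GC). Their median log2 change was 0.39, and -0.32 relative to genes of like GC. Among those that rose were Chaf1a at 98.8-fold, Gins2 at 31.6-fold and Mcm3 at 14.6-fold, folds not relative to like GC.

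Of 15 repressors of the Ink4-Arf locus tested, 10 were called higher and 2 lower, against 39.7% and 24.6% of all genes. With DESeq2 factors they were 8 and 4, and relative to like GC 6 and 1. Phc2 and Cbx6 went from 17 reads each to 298 and 167, Cbx2 from 24 to 141 and Tbx3 from 23 to 92. These are raw reads, and the depth of shSCR was lower by an order of magnitude, so they understate the rise in CPM. Their median log2 change was 1.97, and 0.35 relative to genes of like GC. Of 20 senescence-associated genes 8 were called higher and 7 lower (6 and 11 with DESeq2 factors, 6 and 9 relative to like GC). Timp2, a metalloproteinase inhibitor, rose 22.8-fold, whereas Mmp3 and Areg, which were high in XiΔXist, had 0 reads in shSCR, at least 31.1-fold and 16.6-fold lower at a floor of 3 reads. Of 13 fibroblast markers 7 were called higher and 2 lower (6 and 3 with DESeq2 factors, 5 and 4 relative to like GC). Their median log2 change was 1.57, and 0.01 relative to genes of like GC. Col5a1, Col1a1 and Fn1 were higher by 179-fold, 85.2-fold and 16.5-fold and Dcn was at 0 reads, at least 61.7-fold lower. These folds are not relative to like GC.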

How the data were processed

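RNA-seq counts of 8 samples in 4 groups of 2 were used. According to the methods, the authors pooled replicates, aligned reads with TopHat to a mouse genome (GRCm38) in which strain differences were masked, split them by allele with SNPsplit and counted exonic reads per gene with featureCounts 1.6.3 (version per the labels); the strand setting is not given in the sources used here. The deposited values are raw counts, 1 column per allele and pool.

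From these, CPM, 129 shares, exact Poisson and Wilson 95% intervals and Fisher's exact tests were computed in Python 3.11.15 with scipy 1.17.1. Total levels were tested for genes that reached 50 reads over both pools, on log2(CPM + 1), which understates the change of low genes, and shares where each pool reached 10 reads. TMM factors came from edgeR 4.0.16 and size factors from DESeq2 1.42.0 for scaling only. The tests were also run on simulated counts with counting error only, for XiΔXist against WT and for shYY1 against shSCR. Of 46078 gene IDs, 45229 matched GENCODE M21. GC content is that of the longest transcript. Intervals and floors of 3 reads cover counting error only, since reads are not independent molecules.

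The members and gene lists were chosen with earlier results of these data known. Beside all members, Xist and Yy1, the text names at most 4 called genes with the largest change per list and comparison, Wrap53, the 3 genes nearest in pattern to Cdkn2a and Cdkn1a, and further genes that are marked as chosen after their values were seen. A gene that this rule names is not reported here. Promoter sequences are from RefSeq.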

Additional observations from a re-analysis of the deposited data

How the results depend on the processing

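No paired analysis was possible because the deposited columns are pooled over replicates and carry no replicate numbers; for the same reason no replicate could be left out. Of the recomputed counts, 77 stayed within 1.5 times the main count and 11 did not. Shares of all genes under the alternative settings are not given here, except at the adjusted p alone for levels. There 21.1% of all genes were higher and 38% lower between XiΔXist and WT, and 4.92% and 9.87% between shYY1 and shSCR. Between XiΔXist and WT, 1 member was called in level at 1.5-fold (Cdkn1a) and 5 at the adjusted p alone, and in share 4 at a change of 3 points alone and 1 at the adjusted p alone (Rb1). Between shYY1 and shSCR, 2 were called in level at the adjusted p alone, and 5 in share at 3 points alone. Between shSCR and XiΔXist, the 2 members called in share became 1 at a minimum of 50 reads, where Rb1 could not be tested, 1 after the change of the regional median was subtracted (Cdkn2c stayed), and 4 at 3 points alone. The call of Cdkn2c after subtraction used the adjusted Fisher p of the share before subtraction. The p53 target genes called went from 2 to 18 between XiΔXist and WT and from 2 to 8 between shYY1 and shSCR at the adjusted p alone.

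Directions turned for some members, among them the called level of Cdkn2c and the called share of Rb1 between shSCR and XiΔXist. Both of these turned by the subtraction itself. The like-GC median of 3.70 was larger than the log2 change of 3.05 at Cdkn2c. The neighbours' change of -52.52 points was larger in size than the -48.75 points of Rb1. The cause of these changes in like-GC genes and neighbours was not tested. Trp53 between shYY1 and shSCR stood at 0.00507 on the log2 scale without mitochondrial reads, 0.0117 with TMM, 0.00171 with DESeq2 factors and 0.0439 relative to like GC, where Cdkn2a and Cdkn2c stood at 0.0361 and 0.0379. Mdm4 between shSCR and XiΔXist turned to -0.575 with TMM and -0.901 with DESeq2 factors, and Cdkn2c to -0.650 relative to like GC. With the regional change subtracted, shares turned to 0.0279 (Trp53), 1.15 (Mdm4), 3.86 (Rb1) and 0.206 points (Ccng1) between XiΔXist and WT, and to -1.35 (Mdm2), -1.26 (Mdm4), 3.76 (Rb1) and -0.184 points (Ccng1) between shSCR and XiΔXist. In the last comparison the median log2 change of all genes was 0.38, and moved to 0.67 without mitochondrial reads, -0.34 with TMM and -0.65 with DESeq2 factors. There the p53 target genes called higher and lower went from 13 and 8 to 10 and 12 with TMM and 7 and 14 with DESeq2 factors. The GC step, the adjusted p alone for levels and the list scalings were chosen after seeing the data. The hairpin pools' depth leaves Rb1, Mdm2 and Bbc3 with at most 40 reads.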
